A study of Mus musculus with 16 samples.

Results

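The 7 genes described here, Esrrb, Nr5a2, Nr0b1, Nr6a1, Rarg, Nr2f2 and Esrra, encode nuclear receptors with known roles in pluripotent cells or at exit from pluripotency. OCT4 peaks were assigned to a gene when their midpoint lay inside the gene body or within 100 kb of any of its annotated transcript starts (GENCODE M21 annotation, mouse build mm10/GRCm38). By this rule 40 of the 26704 peaks of the merged OCT4 list belonged to the 7 genes, and no peak belonged to more than 1 of them. The list comes from chromatin immunoprecipitation and sequencing (ChIP-seq) of OCT4 in 2TS22C cells, a mouse embryonic stem (ES) cell line in which a Tet-Off promoter drives Sox2. The OCT4 libraries were 4, with 2 from untreated cells (SOX2 ON) and 2 from cells given doxycycline at 1 µg/ml for 26 h (SOX2 OFF). Some SOX2 protein is still left at this time according to the study. Both groups were grown in serum with LIF, CHIR99021 and PD184352, and cells were fixed with disuccinimidyl glutarate followed by formaldehyde. The other 12 of the 16 libraries, for BRG1 and H3K27ac in 2TS22C cells and for H3K27ac in the OCT4-repressible line ZHBTc4, were not used here.

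The list gives a chromosome, a start and an end for each peak, and nothing else. SOX2 ON and SOX2 OFF cells, the replicates and the height of binding can therefore not be told apart in it, and the depth behind each peak is unknown. All comparisons below are descriptions, without a test, set beside the same count over all peaks or over 21938 protein-coding genes. The 95% Wilson interval is given with shares, and it reflects the counting error alone. The identity of the cells could not be checked against marker genes, since peaks are not expression.

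Nuclear receptors are transcription factors that read short DNA elements built around the letters AGGTCA, and many of them are switched by a small lipophilic ligand. In ES cells ESRRB and NR5A2 act as activators of the pluripotency network without a known physiological ligand in that setting, and both bind the extended element TCAAGGTCA (called here the ERR element). NR0B1 (DAX1) lacks a classical DNA-binding domain and represses partner receptors. NR6A1 (GCNF) silences Pou5f1 during differentiation, RARG is a receptor for retinoic acid, NR2F2 (COUP-TFII) is switched on as cells differentiate, and ESRRA controls mitochondrial and energy genes.

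OCT4 binds the octamer ATTTGCAT, and together with SOX2 it binds a composite element in which the octamer is directly followed by AACAATG. The composite element was searched on both strands with at most 3 mismatches over its 15 bases. It was found in 6 of the 40 peaks, at 5 of the 7 genes, and not at Nr0b1 or Esrra. The matches are shown because they are the places at these genes where the letters come closest to the joint OCT4 and SOX2 element. For each gene the match with the fewest mismatches was taken. At Nr6a1 2 matches tied, and the one nearer to its peak midpoint was taken (38 against 39 bp). Up to 200 bases of the peak are printed from the plus strand of the reference genome, and capitals mark the match. The stretch at Rarg is cut to the match itself because the bases around it are annotated as 5′ UTR.
Esrrb, chr12:86470954-86471153, intron, match on the plus strand with 3 mismatches: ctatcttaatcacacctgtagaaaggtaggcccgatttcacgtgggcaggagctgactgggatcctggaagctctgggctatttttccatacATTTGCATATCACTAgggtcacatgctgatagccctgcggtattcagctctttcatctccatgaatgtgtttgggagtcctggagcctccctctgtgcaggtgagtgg
Nr5a2, chr1:136940680-136940879, over a coding exon, match on the minus strand with 2 mismatches: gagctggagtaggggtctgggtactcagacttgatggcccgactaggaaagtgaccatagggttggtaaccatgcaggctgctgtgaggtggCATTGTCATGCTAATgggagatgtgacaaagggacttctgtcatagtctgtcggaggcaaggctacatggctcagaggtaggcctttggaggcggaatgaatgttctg
Nr6a1, chr2:38817582-38817781, intron, match on the plus strand with 3 mismatches: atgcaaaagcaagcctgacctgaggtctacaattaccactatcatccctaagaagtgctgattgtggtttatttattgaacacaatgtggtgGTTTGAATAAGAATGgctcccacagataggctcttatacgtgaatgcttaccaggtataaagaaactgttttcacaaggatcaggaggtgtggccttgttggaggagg
Rarg, chr15:102243346-102243360, 5′ UTR, match on the plus strand with 3 mismatches: ATTAGCATAAGAATC
Nr2f2, chr7:70378963-70379162, upstream of the gene, match on the minus strand with 2 mismatches: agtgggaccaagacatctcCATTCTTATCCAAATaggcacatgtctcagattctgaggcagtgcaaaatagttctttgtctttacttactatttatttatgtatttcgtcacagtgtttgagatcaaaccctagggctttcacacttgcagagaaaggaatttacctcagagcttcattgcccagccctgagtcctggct

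At Esrrb the match holds an octamer without mismatch, and its 3 mismatches lie in the SOX2 part. The matches at Nr5a2 and Nr2f2 are closer over the whole element but lack the exact octamer. The 6 matches lay 25 to 92 bp from the midpoint of their peak, with a median of 38.5 bp. The 3223 matches in all peaks lay a median of 52 bp from it, and peak widths were not matched. Of all peaks, 11.5% held a composite match. The share among the 40 peaks was 15% (interval 7.06 to 29.1%), so the interval covers the value of all peaks.

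Esrrb (ENSMUSG00000021255.17, chr12:86361117-86521628, plus strand) had 8 peaks, and at each of them the nearest start of any protein-coding gene was that of Esrrb. Here and below, all transcript starts of a protein-coding gene were counted for this, also those of processed and retained-intron transcripts. The gene has 5 annotated starts. No peak lay near the first, at the 5′ end of the gene, or near the second and the third, which are 60.5 and 60.8 kb further on. Their nearest peak was 94.1, 33.6 and 33.3 kb away. The fourth start, of a protein-coding transcript 109 kb into the gene, had a peak of 410 bp at 970 bp downstream (chr12:86470883-86471292), which is the peak with the composite match. The fifth, of a processed transcript, had the widest Esrrb peak 2.53 kb upstream of it (chr12:86501571-86502181, 611 bp). Thus the Esrrb peaks were spread over the 3′ part of the gene and beyond it. Of the 8 peaks, 6 were in introns and 2 were downstream of the gene, and none was upstream. In the transcript with the longest coding sequence, which has 6 introns, the peaks fell in introns 1, 2, 2, 3, 3 and 5.

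Of the 8 Esrrb peaks, 4 held an exact octamer, a share of 50.0% (interval 21.5 to 78.5%). Among the 32 peaks of the other 6 genes 1 held it, a share of 3.12% (0.554 to 15.7%), and among all peaks 11.0% did. The octamers at Esrrb were singled out after their values were seen, and no test was made of the difference. They lay 7, 13, 26 and 37 bp from the midpoint of their peaks. In all peaks the median distance over 3286 octamers was 61 bp. A wider peak allows a larger distance. The Esrrb octamer peaks were 313 to 418 bp wide, while all peaks ranged from 203 to 38168 bp, and widths were not matched. The 3 octamer peaks without a composite match are shown, with peaks numbered along the gene, 61 bases each with the octamer in capitals (its reverse complement where the site is on the minus strand), so that the letters beside the octamer can be compared.
Esrrb, peak 3, chr12:86479014-86479074, minus-strand octamer: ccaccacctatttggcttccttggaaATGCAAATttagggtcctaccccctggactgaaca
Esrrb, peak 6, chr12:86508558-86508618, plus-strand octamer: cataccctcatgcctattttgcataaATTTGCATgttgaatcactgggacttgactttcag
Esrrb, peak 7, chr12:86526584-86526644, minus-strand octamer: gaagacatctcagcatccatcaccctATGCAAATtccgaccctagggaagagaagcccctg

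The 7 bases that follow these octamers in the direction of the motif differed from the SOX2 part AACAATG at 4, 6 and 6 positions, against 3 at the composite match. In all peaks the median was 5 of 7, and 19.7% of octamers had at most 3 differences. Esrrb peak 7, 22.2 kb past the last start, also held the STAT element TTCCNGGAA, where N is any base, as did 1.73% of all peaks. None of the 8 Esrrb peaks held the SOX core CCATTGT or CCTTTGT.

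The widest Esrrb peak held the ERR element TCAAGGTCA at 2 places, which is the sequence that the ESRRB protein itself is known to bind. It was 1 of 2 peaks of the 40 with the element, a share of 5.00% (interval 1.38 to 16.5%), against 3.08% of all peaks. The second such peak lay just upstream of Esrra. One of the Esrrb copies is part of a direct repeat without spacing, AGTTCA followed by AGGTCA, and 1.44% of all peaks held such a repeat. The peak also held the KLF element GGGTGTGGC, as did 2.01% of all peaks. The elements are shown with capitals for the ERR element and, at the second copy, for the whole repeat on the minus strand.
Esrrb, peak 5, chr12:86502004-86502123, plus-strand element: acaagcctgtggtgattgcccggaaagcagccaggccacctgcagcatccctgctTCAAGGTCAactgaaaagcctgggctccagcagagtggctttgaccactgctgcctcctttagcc
Esrrb, peak 5, chr12:86501662-86501781, minus-strand repeat: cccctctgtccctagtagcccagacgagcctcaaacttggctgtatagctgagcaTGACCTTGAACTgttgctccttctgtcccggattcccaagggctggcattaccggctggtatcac
Esrra, peak 3, chr19:6922282-6922370, plus-strand element: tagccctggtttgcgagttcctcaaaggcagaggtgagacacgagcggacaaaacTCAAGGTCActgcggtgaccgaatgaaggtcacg

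The ERR elements lay 141 to 187 bp from the midpoints of their peaks, so none of them was in the central 200 bp. The composite matches and the octamers of the 7 genes all lay there. The peaks with ERR elements, of 611 and 772 bp, were the widest of the 40. A motif can lie farther from the midpoint in them than in a narrower peak, and widths were not matched. With 1 mismatch allowed, 5 of the 40 peaks held the element (12.5%), against 19.6% of all peaks.

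**Figure D1:**
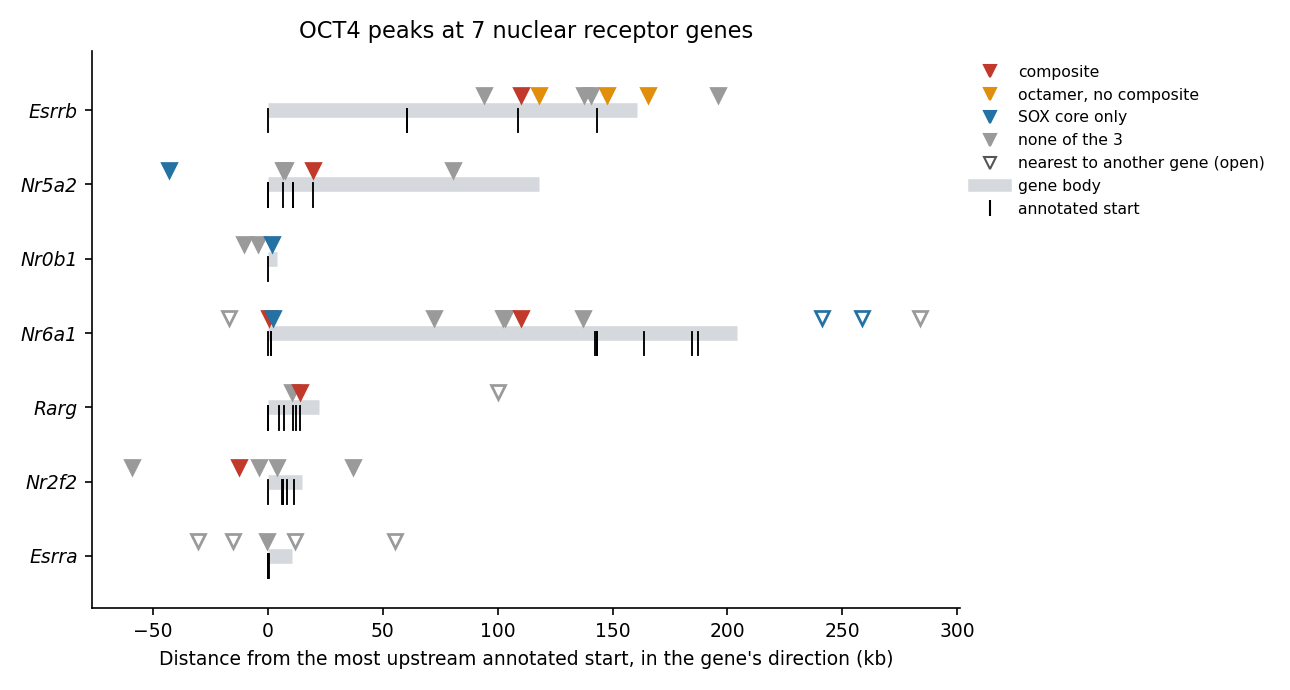
Positions of the 40 OCT4 peaks at the 7 genes. The x axis gives the distance from the most upstream annotated start in kb, in the direction of the gene; grey bars are gene bodies, black ticks are annotated starts, and triangles are peak midpoints coloured by motif, open where another gene has the nearer start. The Esrrb peaks begin 94.1 kb into the gene, and Esrrb, Nr5a2, Nr6a1, Rarg and Esrra have peaks within 1 kb of an annotated start.

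Nr5a2 (ENSMUSG00000026398.14, chr1:136842571-136960448, minus strand) had 5 peaks, all with Nr5a2 as the nearest protein-coding gene, and 3 of them lay within 1 kb of a start. The first annotated starts of the gene were without one, with the nearest peak 6.59 and 6.52 kb away. The peaks gathered at internal starts. One, of 409 bp, lay 232 bp upstream of the third start, that of a protein-coding transcript (chr1:136953658-136954066). A second, of 213 bp, lay 590 bp downstream of the same start (chr1:136952934-136953146), and the pair was 822 bp apart. The widest, of 517 bp, lay 152 bp upstream of a retained-intron transcript and its midpoint was in a coding exon (chr1:136940477-136940993). It held the composite match and a SOX core. The remaining peaks were 42.7 kb upstream of the gene, with a SOX core, and 60.8 kb downstream of the last start, in the last intron. The third start is shown because a peak covered most of its promoter. The 250 bases before the RefSeq start are printed in the direction of the gene from the GRCm38.p6 promoter table, with the bases inside the peak in capitals.
Nr5a2, chr1:136953631-136953880, minus strand: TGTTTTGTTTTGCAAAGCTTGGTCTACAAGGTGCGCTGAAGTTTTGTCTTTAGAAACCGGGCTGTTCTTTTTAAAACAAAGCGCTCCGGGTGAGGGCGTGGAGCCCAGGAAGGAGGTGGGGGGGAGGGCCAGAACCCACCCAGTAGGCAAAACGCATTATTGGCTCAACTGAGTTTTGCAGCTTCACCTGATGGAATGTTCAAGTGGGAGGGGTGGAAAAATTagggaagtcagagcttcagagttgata

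None of the 11 RefSeq promoters of the 7 genes held the exact octamer, the composite element or the ERR element over their 300 bases. Of 32851 promoters of the same length, 1.73% held the octamer, 0.968% the composite and 0.423% the ERR element. The SOX core was in 2 of the 11, against 9.28% of the 32851. The search covers these windows only, and each promoter runs from 250 bases before to 50 after the start.

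Nr0b1 (ENSMUSG00000025056.4, chrX:86191764-86195947, plus strand) is a short gene with 1 annotated start and had 3 peaks, all nearest to it. They lay 10.4 kb upstream, 4.35 kb upstream and 1.93 kb downstream of the start, the last in the single intron (chrX:86193540-86193847, 308 bp). Widths were 373, 365 and 308 bp. None lay within 1 kb of the start, and none held the composite element or the octamer. The intronic peak held the SOX core CCTTTGT at 33 bp from its midpoint. The farthest upstream peak, which was also the widest (chrX:86181131-86181503), was 98.4% repeat-masked, against a median of 13.0% over all peaks, and the effect of repeats on its call was not tested. Chromosome X carried 3.78 peaks per Mb, against a mean of 10.7 over the autosomes. Of the 948 protein-coding genes on X, 57.7% had at least 1 peak and 21.6% had at least 3.

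Nr6a1 (ENSMUSG00000063972.13, chr2:38723370-38927688, minus strand) is the longest of the 7 genes and had the most peaks, 11, of which 7 were in its introns. Peaks lay both beside its most upstream starts and deep in the gene. One peak (chr2:38926709-38927142, 434 bp) lay 650 bp upstream of the second start and 763 bp downstream of the first. Its neighbour (chr2:38925118-38925589, 472 bp) lay 864 bp downstream of the third start, and the midpoints were 1.57 kb apart. The first of them held an exact octamer, which began a second composite match with 3 mismatches, and the other held a SOX core. The octamer is shown in capitals as the minus-strand site.
Nr6a1, peak 2, chr2:38926860-38926920: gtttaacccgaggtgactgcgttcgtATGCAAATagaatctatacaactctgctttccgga

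The other 5 intronic Nr6a1 peaks were 5.56 to 70.2 kb upstream of the internal starts, all in the fourth intron. The widest of them and of the gene (chr2:38817400-38817886, 487 bp) held the composite match printed above and was 36.5% repeat-masked. A pair 991 bp apart lay in sequence that is also an intron of the antisense gene Nr6a1os. Another peak was 59.6% repeat-masked. The 4 peaks outside the gene were nearer to other protein-coding genes. One was in an intron of Olfml2a, 12.3 kb from its start. Another was 24.8 kb from Nr5a1, a paralogous receptor gene in the same stretch of the chromosome. The last 2 were nearest to the proteasome subunit gene Psmb7, at 24.9 kb and at 107 bp from its start.

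Rarg (ENSMUSG00000001288.15, chr15:102234938-102257517, minus strand) had 3 peaks, and 2 of them lay within 1 kb of internal starts of protein-coding transcripts. The first 2 annotated starts had none, with the nearest peak 10.6 and 10.5 kb away. The widest Rarg peak (chr15:102246650-102247124, 475 bp) was 387 bp upstream of the fifth start. The second (chr15:102243186-102243571, 386 bp) was 211 bp downstream of the seventh and held the composite match. The last, of 212 bp, was 86.4 kb from a Rarg start, in an intron of the cholesterol esterification gene Soat2, whose start was 6.08 kb away. The promoter of the fifth start is shown because the peak reached into it, with the covered bases in capitals.
Rarg, chr15:102246501-102246750, minus strand: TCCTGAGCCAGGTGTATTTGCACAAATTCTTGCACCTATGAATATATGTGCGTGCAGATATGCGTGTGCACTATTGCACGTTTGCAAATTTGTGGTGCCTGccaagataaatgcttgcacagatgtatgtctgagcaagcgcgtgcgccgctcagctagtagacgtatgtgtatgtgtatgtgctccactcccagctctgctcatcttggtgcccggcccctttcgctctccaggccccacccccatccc

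Nr2f2 (ENSMUSG00000030551.14, chr7:70351944-70366735, minus strand) had 5 peaks and none within 1 kb of a start. All 5 had Nr2f2 as the nearest protein-coding gene, and no other protein-coding gene had a start in the window searched. The nearest peak was 1.97 kb upstream of the second start, inside the gene (chr7:70362451-70362669, 219 bp). Upstream peaks lay 3.73, 12.3 and 59.0 kb from the first start and 1 peak lay 25.6 kb past the last. The 12.3 kb peak of 238 bp held the composite match, and the 59.0 kb peak was the widest (chr7:70425542-70425977, 436 bp). All 3 upstream peaks fell in introns of the non-coding gene B130024G19Rik, which runs in the opposite direction, and the downstream peak fell in an intron of the non-coding gene Gm29683. None of the 5 peaks held the octamer or a SOX core.

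Esrra (ENSMUSG00000024955.14, chr19:6910977-6921813, minus strand) had 5 peaks, and only 1 of them had Esrra as the nearest protein-coding gene. This peak (chr19:6921815-6922586) was the widest of the 40, at 772 bp. It lay 387 bp upstream of the first start and covered 244 of the 300 bases of the RefSeq promoter. It held the ERR element shown above and no octamer, composite element or SOX core. The 4 others were nearest to Bad at 1.35 kb, Kcnk4 at 2.21 kb, Trmt112 at 103 bp and Ccdc88b at 7.99 kb. The window of Esrra held the starts of 16 other protein-coding genes, the most of the 7, against a median of 4 over all protein-coding genes. The peak nearest to Kcnk4 was 100.0% repeat-masked and that nearest to Ccdc88b 53.4%. The promoter is shown with the bases inside the peak in capitals.
Esrra, chr19:6921809-6922058, minus strand: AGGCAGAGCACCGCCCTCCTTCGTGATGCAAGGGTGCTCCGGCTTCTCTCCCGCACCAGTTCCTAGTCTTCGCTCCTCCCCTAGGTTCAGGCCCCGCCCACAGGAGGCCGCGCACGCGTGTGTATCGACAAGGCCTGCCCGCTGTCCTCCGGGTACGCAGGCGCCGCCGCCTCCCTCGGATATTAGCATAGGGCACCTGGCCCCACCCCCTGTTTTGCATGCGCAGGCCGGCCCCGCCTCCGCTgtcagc

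With 1 mismatch allowed, the octamer was found in the covered part of the Rarg and Esrra promoters and in none of the other 9 promoters of the 7 genes. In the direction of the gene, Rarg held ATTTGCAC at 235 bases before the start and, on the opposite strand, ATTTGCAA at 169 bases. Esrra held ATTAGCAT at 69 bases and TTTTGCAT at 38 bases before the start. Of the 32851 promoters, 18.6% held such a match. This search was added after the sequences were seen.

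Across the 7 genes, every gene had at least 1 peak, as did 85.7% of all protein-coding genes under the same rule. A count above 0 therefore says little about a gene. Nr6a1 with 11 peaks exceeded 98.0% of protein-coding genes and Esrrb with 8 exceeded 91.5%. Nr5a2, Nr2f2 and Esrra with 5 each exceeded 70.0%, and Nr0b1 and Rarg with 3 each exceeded 43.6%. Long genes with many starts have larger windows. Per 100 kb of window the genes had 2.84 peaks (Nr6a1), 2.49 (Esrra), 2.36 (Nr2f2), 2.33 (Esrrb), 2.27 (Nr5a2), 1.5 (Nr0b1) and 1.40 (Rarg), and the median of protein-coding genes was 1.40. By density Nr6a1 exceeded 85.3% of protein-coding genes, Esrrb 76.0% and Rarg 50.2%.

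**Figure D2:**
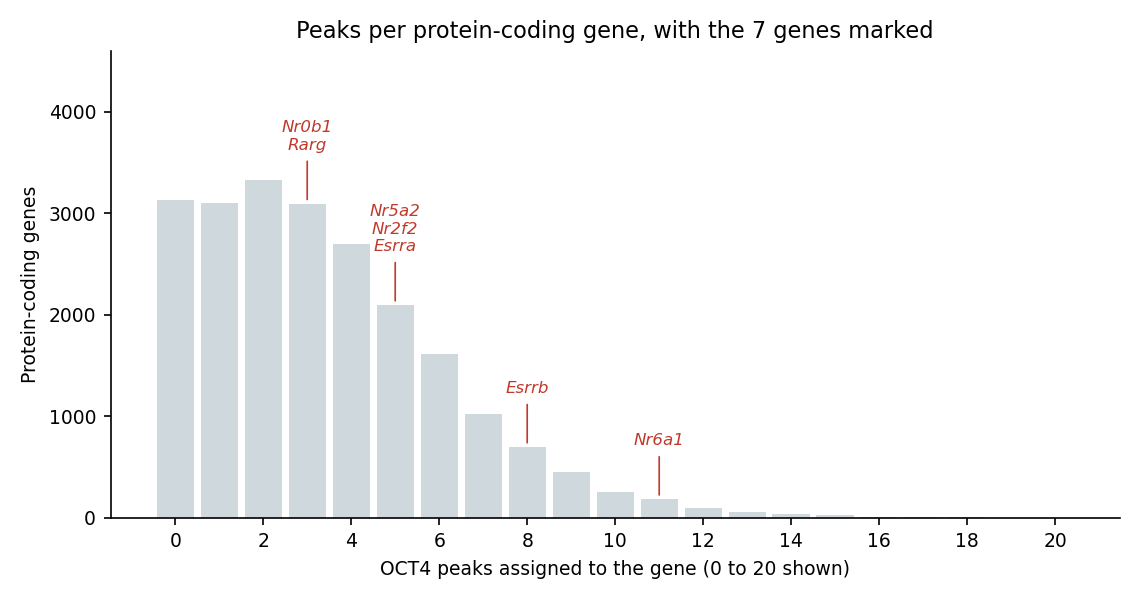
Number of OCT4 peaks per protein-coding gene (x axis) against the number of genes with that count (y axis), with the 7 genes named above their bars and counts over 20 left out. Nr6a1 and Esrrb stand in the upper tail and Nr0b1 and Rarg, with 3 peaks each, at the median of 3.

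Of the 40 peaks, 31 had their nearest start of a protein-coding gene at the gene itself (77.5%, interval 62.5 to 87.7%). Over all 75196 pairs of a protein-coding gene and a peak formed by the rule, 30% had this. Each of the 7 genes held at least 1 such peak, as did 46.1% of all protein-coding genes. Counting only these peaks, Esrrb (8) exceeded 98.8% of protein-coding genes, Nr6a1 (7) 98.1%, Nr5a2 and Nr2f2 (5 each) 95.3%, Nr0b1 (3) 87.5%, Rarg (2) 76.7% and Esrra (1) 53.9%. The share depends on how many genes stand nearby, and peaks at the same gene have these neighbours in common. Such peaks are not independent, so the intervals given for this share are too narrow. The windows of Esrrb, Nr5a2, Nr0b1 and Nr2f2 held the starts of 1, 0, 1 and 0 other protein-coding genes, while those of Nr6a1, Rarg and Esrra held 7, 11 and 16. When starts of non-coding genes were counted too, the share of the 40 peaks nearest to their own gene was 57.5% (interval 42.2 to 71.5%), against 19.1% of all pairs.

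A peak within 1 kb of any own start was found at 5 of the 7 genes (Esrrb, Nr5a2, Nr6a1, Rarg and Esrra, with 9 such peaks), and at 16.5% of all protein-coding genes. More annotated starts give more places for such a peak, and this was not adjusted for. The starts were 5 at Esrrb, 6 at Nr5a2, 1 at Nr0b1, 10 at Nr6a1, 7 at Rarg, 6 at Nr2f2 and 5 at Esrra. The RefSeq starts leave out the Esrrb start with such a peak. They also leave out the sixth Nr5a2 start, of the retained-intron transcript, and the seventh Rarg start, whose peaks held the composite matches. The third Nr5a2 start and the fifth Rarg start are among them. Within 1 kb of the most upstream start alone, 2 of the 7 genes had a peak (Nr6a1 and Esrra), against 12.5% of all. The start-proximal peaks of Esrrb, Nr5a2 and Rarg were thus all at internal starts, between 6.82 and 109 kb downstream of the first.

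**Figure D3:**
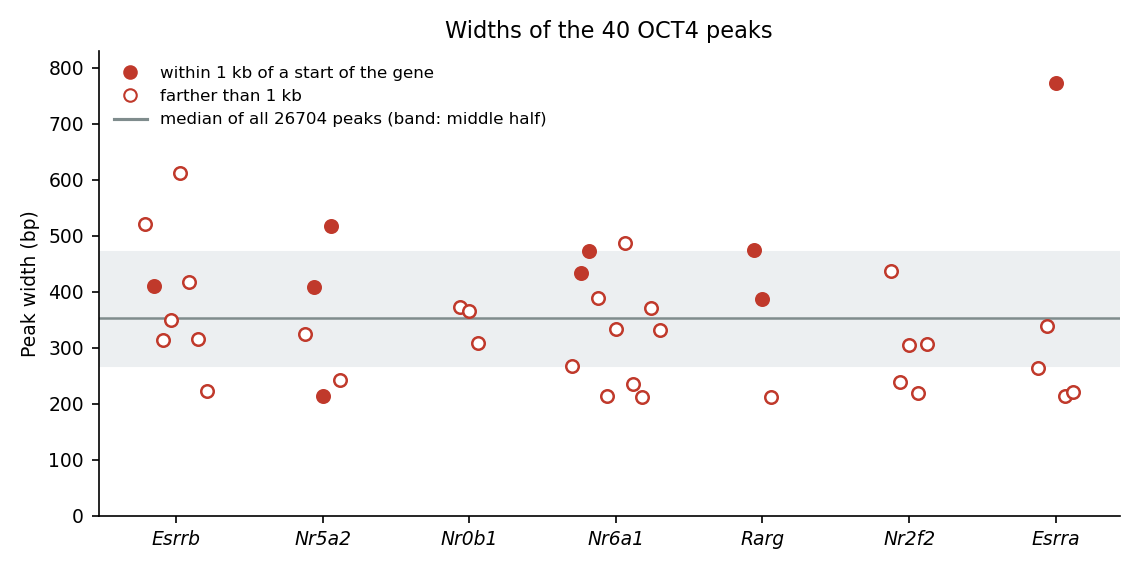
Width of each of the 40 peaks in bp (y axis) by gene (x axis), filled where the midpoint is within 1 kb of a start of the gene; the line and band give the median and the middle 50% of all 26704 peaks. The Esrra promoter peak of 772 bp and the Esrrb peak of 611 bp are the widest.

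The peaks at the 7 genes had a median width of 332 bp (range 211 to 772 bp), against 352 bp for all peaks, and 27 of the 40 (67.5%) were at least 300 bp wide, against 65.1% of all. Median GC content was 48.2%, against 46.4%, and it was highest in the 213 bp peak inside Nr5a2 (66.7%). The median share of repeat-masked bases was 10.4%, against 13.0%, and 4 of the 40 peaks (10.0%) were over 50% repeat-masked, against 15.6% of all. The median distance to the next peak was 10.5 kb, against 18.2 kb, and 50.0% (interval 35.2 to 64.8%) had another peak within 10 kb, against 34.0% of all. Close peaks count for each other, so they are not independent and this interval is too narrow. Since the rule takes peaks near genes, a spacing of this kind was not tested. The largest chains of peaks less than 10 kb apart held 3 peaks, at Esrrb over 9.62 kb, Nr0b1 over 12.4 kb, Nr6a1 over 7.69 kb and Nr2f2 over 16.5 kb.

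The SOX core was found in 6 of the 40 peaks (15%, interval 7.06 to 29.1%), at Nr5a2, Nr0b1 and Nr6a1. Of all peaks 30.3% held it, a value just above the interval. Widths and GC content were not matched, and the difference was not tested. The octamer was found in 5 (12.5%, 5.46 to 26.1%), at Esrrb and Nr6a1, against 11.0% of all. The composite element, the octamer or the SOX core was found in 14 of the 40 (35.0%, 22.1 to 50.5%), against 43.7% of all peaks. The other 26 peaks held none of these letters, among them all 5 of Esrra and 4 of the 5 of Nr2f2. Retinoic acid receptors are known to bind direct repeats of receptor sites with a spacing of 1 or 5 bases. The site was AGGTCA, with AGTTCA accepted as a variant and likewise GGGTCA, and as the last variant GGTTCA, in either position. Such repeats were in 0 of the 40 peaks, which allows for each spacing a share of up to 7.5% by a limit of 3 counts and 8.76% by the Wilson interval. They were in 0.326% (spacing 1) and 0.273% (spacing 5) of all peaks.

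**Figure D4:**
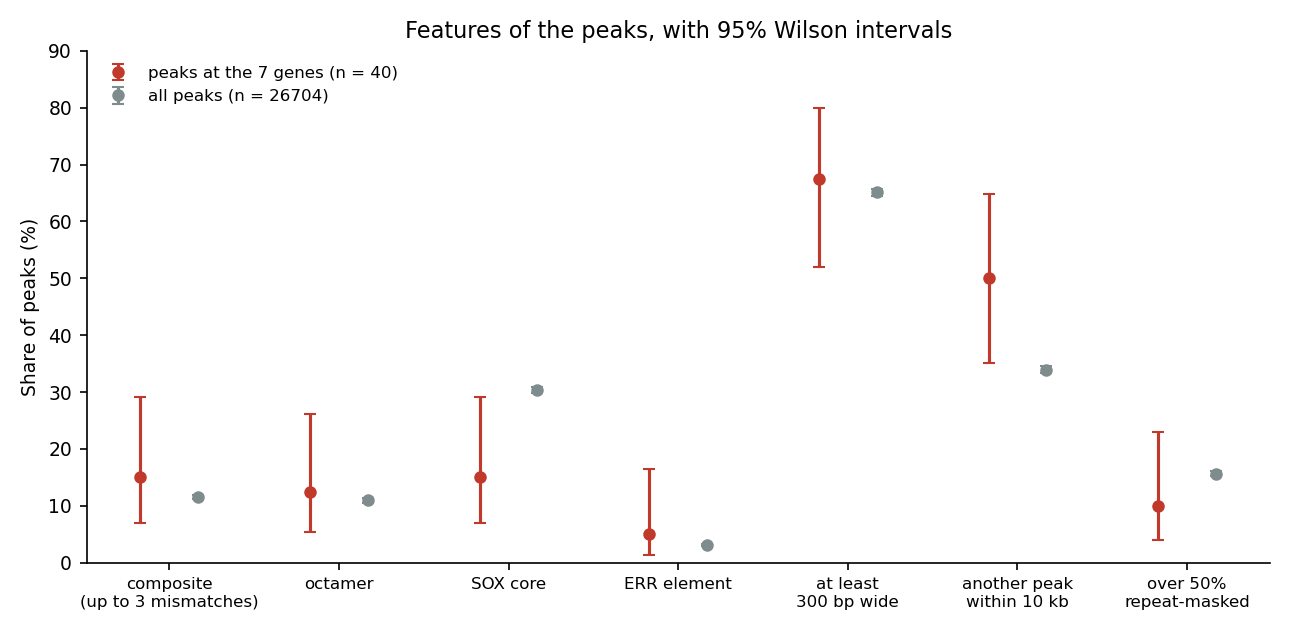
Share of peaks in percent (y axis) with each motif or feature (x axis), for the 40 peaks at the 7 genes and for all 26704 peaks; bars are 95% Wilson intervals. The intervals of the 40 peaks cover the value of all peaks for the composite element (15% against 11.5%), the octamer and the ERR element. They stay below it for the SOX core, where widths and GC content were not matched. For a neighbouring peak within 10 kb the interval starts at 35.2%, against 34.0% of all peaks. Close peaks count for each other there and are not independent, so this interval cannot settle a difference.

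Among 49 nuclear receptor genes of the mouse, 47 had at least 1 peak (95.9%), against 85.7% of all protein-coding genes. The 42 receptors other than the 7 had a median of 4 peaks and 1.29 peaks per 100 kb of window. The 7 had medians of 5 and 2.33, and all protein-coding genes had 3 and 1.40. Counting only peaks nearest to the gene itself, the medians were 1 for the 42, 5 for the 7 and 0 over all protein-coding genes. The 7 were chosen with earlier results of these data known, and the number of nearby genes was not matched. The contrast with the 42 is thus a description only. A peak nearest to the gene itself was found at 31 of the 42 others and at 46.1% of all protein-coding genes. The others with the most peaks were Rora with 10, Nr1h3 with 8, Ppard and Rarb with 7, and 6 more with 6 each, from which Esr2 and Esrrg come first by name. Of the Nr1h3 and Ppard peaks 1 and 0 were nearest to the gene, while Rora kept 8 of 10 and Rarb, the retinoic acid receptor that retinoic acid itself induces, 6 of 7. Esrrg, the third of the estrogen-related receptors, had 6 peaks, all nearest to it, over a gene body of 606 kb, which is 0.850 per 100 kb. Of the other retinoic acid receptors and their RXR partners, Rara, Rxra and Rxrb had 4 peaks each, of which 1, 4 and 0 were nearest to the gene, and Rxrg had 2, both nearest to it.

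**Figure D5:**
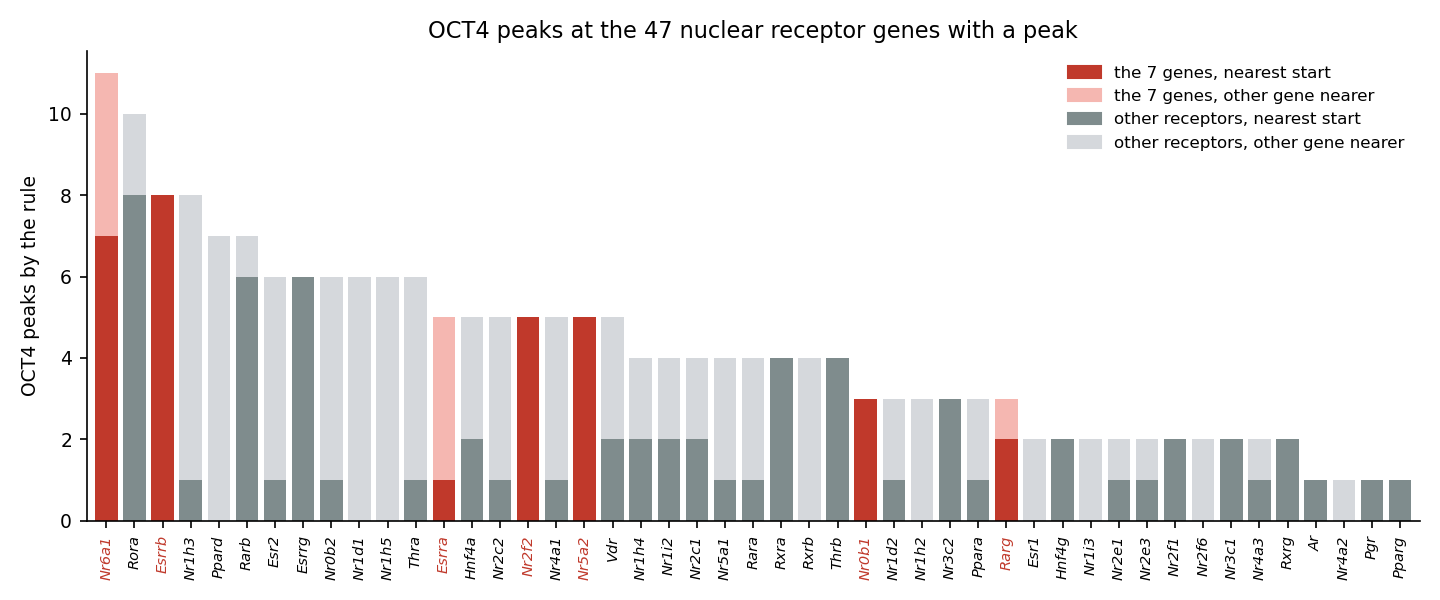
OCT4 peaks by the rule (y axis) at each of the 47 nuclear receptor genes with at least 1 peak (x axis). The 7 genes are in red, and the dark part of a bar counts peaks with the gene's start nearest among protein-coding genes. Esrrb, Nr5a2, Nr0b1 and Nr2f2 have bars that are dark throughout, while Esrra has 1 dark peak of 5.

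Of 9 coregulator genes, which encode the partners through which receptors activate or repress, 8 had a peak (88.9%), against 85.7% of all protein-coding genes. Their median was 1.64 peaks per 100 kb of window, against 1.40. Ncoa3, a coactivator that ESRRB is known to use, had 12 peaks, Ncor1, a corepressor, had 11, and Ncoa1 and Ncoa2, further coactivators, had 7 each. Ncoa3 exceeded 98.8% of protein-coding genes by count. Its nearest peak was 0.764 kb from a start, and 7 of its 12 peaks had it as the nearest gene. All 10 retinoid genes had a peak, beside 85.7% of all protein-coding genes. Their median was 3 peaks, as over all protein-coding genes, and 1.24 peaks per 100 kb of window against 1.40. The most were at Crabp1, a retinoic acid binding protein, with 8 peaks, of which 2 were nearest to it. Aldh1a2, the main enzyme of retinoic acid synthesis in the embryo, had 5, of which 4 were nearest to it. Crabp2, Dhrs3 and Stra6 had 4 each, of which 0, 1 and 1 were nearest to the gene.

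The assignment depends on the window at its edge. The farthest peaks kept outside a gene body were 52.6 kb from a start of Esrrb, 42.7 kb of Nr5a2, 10.4 kb of Nr0b1, 96.7 kb of Nr6a1, 86.4 kb of Rarg, 59.0 kb of Nr2f2 and 54.9 kb of Esrra. The closest peaks left out were 172 kb from a start of Esrrb, 159 kb of Nr5a2, 139 kb of Nr0b1, 126 kb of Nr6a1, 107 kb of Rarg, 115 kb of Nr2f2 and 148 kb of Esrra. The one left out at Nr2f2 (chr7:70239879-70240112) still had Nr2f2 as its nearest protein-coding gene.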

How the data were processed

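The deposited list holds the chromosome, start and end of each merged OCT4 peak, in base pairs, and no other value. Per the labels and the methods, the authors used STAR 2.6.1c for alignment to mm10, Picard for duplicate removal, MACS2 2.1.1.20160309 for peak calling on paired-end reads of the assembled nuclear chromosomes, and BEDTools for merging. The sources used here do not say which libraries were merged or whether replicates were pooled. Merging joins overlapping peaks, so a width is that of a union. The methods also describe removing peaks above a set size, and those overlapping input or blacklisted peaks. The widest peak of the list used here, at 38168 bp, is above that size, so the size limit was not applied to this list. Whether input or blacklisted peaks had been removed was not checked.

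Starts were made 1-based. Peaks were assigned by midpoint with GENCODE M21, and sequence was read from GRCm38.p6, whose chromosome names and lengths fit the list. Promoters came from RefSeq, where all 7 genes matched. Motifs were matched exactly on both strands unless said, and repeat-masked bases are those in lower case in the reference. The functions were tested on simulated data. The 7 genes, the gene lists and the motifs were chosen with earlier results of these data known. Named peaks were, for each gene, the nearest, the widest, the best composite match and those within 1 kb of a start; other receptors were named by number of peaks. Python 3.11.15, NumPy 2.4.6 and SciPy 1.17.1 were used. OCT4 binding in SOX2 OFF against SOX2 ON, BRG1 and H3K27ac were not analysed here.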

Additional observations from a re-analysis of the deposited data

How the results depend on the processing

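No paired analysis was possible because each peak is given by coordinates alone, with no value for any replicate. For the same reason no replicate could be left out, and SOX2 OFF was not compared with SOX2 ON. Of 111 alternative values for 16 results, 98 stayed within 1.5 times the reported count or within its interval. The 40 peaks became 27 (at least 300 bp wide) to 40, and moved to 36 with RefSeq starts, an alternative chosen after seeing the data. With RefSeq starts Esrrb had 6 peaks instead of 8. For 77.5% of peaks the nearest start of a protein-coding gene was that of the gene itself. This share moved to 57.5% with starts of any gene type, 88.9% with peaks of at least 300 bp and 87.9% with a 50 kb window. The share with the composite element (15%) moved to 5.00% with at most 2 mismatches and 45.0% with at most 4, where all peaks gave 2.21% and 35.9%. The ERR element (5.00%) moved to 0% in the central 200 bp. By gene, counts moved beyond 1.5 times at Nr2f2 and Esrra (5 to 3 each in a 25 kb window), at Nr5a2 (5 to 3), Nr6a1 (11 to 7), Nr2f2 (5 to 3) and Esrra (5 to 2) with peaks of at least 300 bp, and at Esrra (5 to 3) without peaks over 50% repeat-masked. Leaving out Nr6a1, also chosen after seeing the data, gave 82.8% nearest to their gene and 13.8% with the composite element. The depth of the libraries is unknown, so a gene without a peak at a start cannot be told from one with binding under the calling threshold.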
